A study of Mus musculus with 8 samples.

Results

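Cyclins and cyclin-dependent kinases (CDKs) were examined as a group of 10 genes in CD8 T cells of wild-type (WT) mice and of mice lacking interleukin-2 (IL-2-KO), a growth factor of T cells. The members were fixed by symbol and found through their Entrez identifiers: the cyclins Ccna2, Ccnb1, Ccnb2, Ccnd2, Ccnd3, Ccne1 and Ccne2 and the kinases Cdk1, Cdk4 and Cdk6. All 10 were among the 11723 genes of the deposited table, and all 10 passed the filter on low values. Each group had 4 libraries of total RNA from CD8 T cells sorted from peripheral lymph nodes of BALB/c mice at 12 days of age. The WT libraries (WT1 to WT4) were made from 5, 5, 3 and 2 pooled mice and 115, 28.7, 1.3 and 1.3 M cells (M, 1e6). The cell number of WT1 seems large for 5 mice so young and is taken from its label. The IL-2-KO libraries (KO1 to KO4, numbered as the replicates) held 26.7, 42.6, 1.1 and 0.4 M cells, with no statement on pooling. The design text of the series adds spleen to the tissues and heterozygotes to the controls, and the sample labels mention neither. It calls the libraries of each group biological replicates.

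A cyclin is the regulatory subunit that switches on its kinase and helps choose its substrates, and most cyclins are made and destroyed once in each division. D-type cyclins with Cdk4 or Cdk6 act in G1, where growth signals from the antigen receptor and from cytokines such as interleukin-2 are read, and they begin the phosphorylation of the retinoblastoma protein that releases E2F factors. E-type cyclins with Cdk2 start DNA synthesis, cyclin A2 acts through S phase and G2, and the B-type cyclins with Cdk1 drive entry into mitosis. Resting T cells contain little of the S phase and mitotic cyclins, which accumulate when cells are driven to divide. These statements are background.

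In the IL-2-KO libraries the 4 members of S phase and mitosis were 3.29-fold to 4.33-fold higher than in WT, while the 4 G1 members showed no common direction. Of the 10 members, 5 were called higher (Ccna2, Cdk1, Ccnb1, Ccnb2 and, by a small step, Cdk4), 1 was called lower (Ccnd3) and 4 did not pass (Ccnd2, Cdk6, Ccne1 and Ccne2). The calls are from limma with Benjamini-Hochberg adjustment over all 11530 genes tested and a threshold of 0.05, by which 11.1% of all genes tested were called higher and 8.03% lower. Counted by groups of libraries that do not overlap, 5 members were higher in IL-2-KO and 0 lower, against 12.9% and 11.2% of all genes tested. Levels are counts per 1e6 (CPM) after TMM scaling, in which a library's total is adjusted so that most genes keep their level between libraries. Changes are differences in log2(CPM + 0.5), which slightly understate the change of the lowest genes. Folds are these log2 differences turned back to the plain scale. Levels given with an SD are arithmetic means of CPM, so their ratio can differ from the fold.

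**Figure D1:**
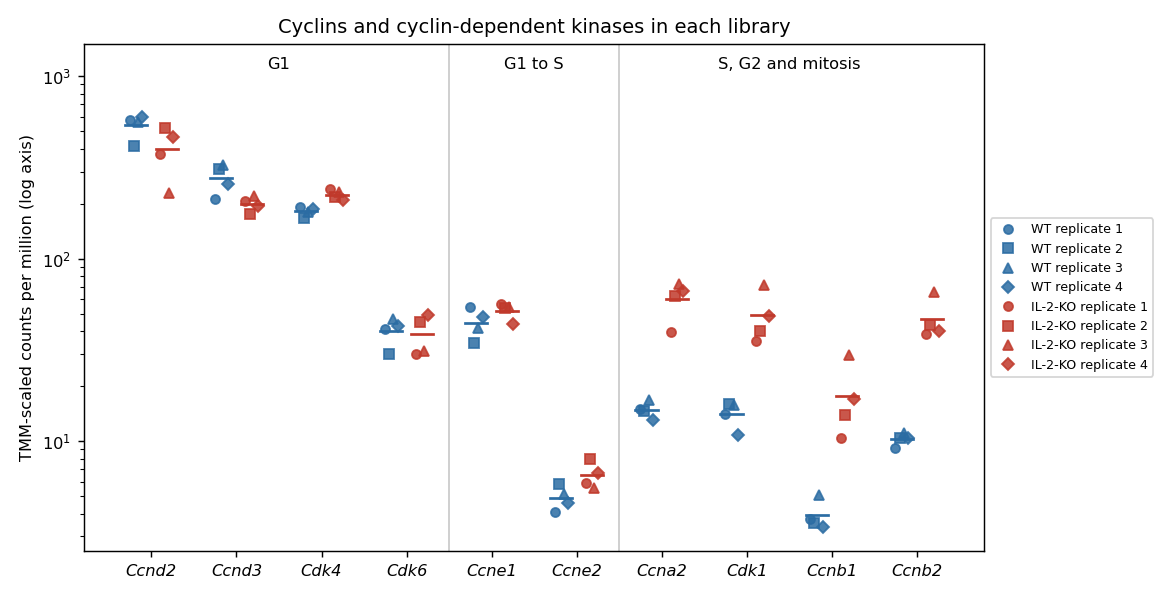
Level of each of the 10 members in each of the 8 libraries, in TMM-scaled CPM on a log axis. Blue marks WT, red IL-2-KO, the marker shape gives the replicate number and the bar is the mean of 4 libraries. The groups are apart for Ccna2, Cdk1, Ccnb1, Ccnb2 and Cdk4 and overlap for the other 5 members.

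The libraries held 11.9 M (WT2) to 18.4 M (KO3) recovered counts. All 5 CD8 T cell markers were listed, with a summed level of 4443 to 5248 CPM in WT and 3936 to 4731 CPM in IL-2-KO. WT2 and KO3 stood apart in myeloid and CD4 markers. The myeloid gene Lyz2 was at 40.0 CPM in the first and 295.8 CPM in the second against 0.23 to 2.85 CPM in the other 6 libraries, and Cd4 was at 38.6 and 45.5 CPM against 0.46 to 2.48 CPM. The 3 of 9 myeloid markers listed summed to 8.20 to 63.0 CPM in WT and 13.3 to 336.5 CPM in IL-2-KO, and the 6 of 6 CD4 and regulatory T cell markers to 16.4 to 99.2 CPM and 67.9 to 243.4 CPM. In IL-2-KO most of the last sum was Ctla4, also an activation gene of CD8 T cells, and in WT Ctla4 was a smaller part of it. Ctla4 was at 5.79 to 30.8 CPM in WT and 51.5 to 170.9 CPM in IL-2-KO, while Foxp3 was at 3.92 to 4.49 and 2.69 to 3.56 CPM. The summed level of natural killer cell markers (3 of 5 listed, 2 of them called higher) was higher in every IL-2-KO library. It was 106.3 to 155.6 CPM in WT and 216.5 to 404.1 CPM in IL-2-KO. Nearly all of that sum was Eomes, which effector CD8 T cells also express (105.0 to 154.1 and 208.1 to 389.8 CPM). Klrb1c (0.50 to 2.81 and 1.22 to 2.53 CPM) and Klre1 (0.58 to 3.12 and 2.01 to 13.1 CPM) overlapped between the groups, and Ncr1 and Klra8 were not listed. The part of these markers in the members' changes was not tested beyond leaving out WT2 and KO3. Of the immature thymocyte markers, Cd1d1 alone was listed (33.5 to 45.0 CPM over the 8 libraries). In these bulk libraries, more cells in division and more RNA of these genes per dividing cell cannot be told apart. Il2 does not check the labels: it was at 5.65 to 6.25 CPM in WT and 4.25 to 8.42 CPM in IL-2-KO (exact two-sided permutation p = 0.857, 70 assignments of 4 and 4 libraries), and the sources used here do not say which part of the gene the allele removes.

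The promoters of the mitotic members are shown first because they share elements that the G1 kinases' windows do not hold. RefSeq promoter windows (GRCm38.p6) ran from 250 bases before to 50 after the annotated start. They were matched for 7 of the 10 members, with 8 windows since Ccnd3 has 2 starts. No window was matched for Ccna2, Ccnd2 or Ccne2, so the comparison leaves these members out. The windows of Ccnb1, Ccnb2, Cdk1 and Cdk4 are given 5′ to 3′ on the gene's strand from 150 bases before the start to 10 bases after it. They lie at chr13:100786477-100786636 (minus strand), chr9:70421545-70421704 (minus), chr10:69352903-69353062 (minus) and chr10:127063385-127063544 (plus). Capitals mark matches to CCAAT (the box bound by the factor NF-Y, written ATTGG where it lies on the other strand), to TTTGAA and TTTAAA (the cell cycle genes homology region and a variant of it) and to the E2F motif.
Ccnb1: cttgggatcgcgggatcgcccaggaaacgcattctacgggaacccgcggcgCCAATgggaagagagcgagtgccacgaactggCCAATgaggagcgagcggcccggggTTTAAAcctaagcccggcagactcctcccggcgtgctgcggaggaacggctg
Ccnb2: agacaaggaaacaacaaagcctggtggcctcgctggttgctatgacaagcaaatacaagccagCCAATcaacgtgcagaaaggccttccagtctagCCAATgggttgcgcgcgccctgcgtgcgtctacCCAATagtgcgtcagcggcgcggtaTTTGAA
Cdk1: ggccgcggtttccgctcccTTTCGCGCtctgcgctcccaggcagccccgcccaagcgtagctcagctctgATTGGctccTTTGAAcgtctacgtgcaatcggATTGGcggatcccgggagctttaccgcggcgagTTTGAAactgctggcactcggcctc
Cdk4: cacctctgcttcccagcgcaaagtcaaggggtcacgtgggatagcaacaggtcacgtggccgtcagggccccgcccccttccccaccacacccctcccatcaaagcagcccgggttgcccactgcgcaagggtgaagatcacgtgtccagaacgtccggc

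The Ccnb1 window held CCAAT at -99 and -67 and TTTAAA at -42, counted from the annotated start to the first base of the match. The Ccnb2 window held CCAAT at -87, -54 and -21, and TTTGAA at -167 (outside the printed stretch) and at 5. The Cdk1 window held CCAAT on the other strand at -208 (outside the printed stretch), -80 and -48, TTTGAA at -71 and -15, and the E2F motif TTTCGCGC at -131. The neighbouring CCAAT boxes of these 3 genes lay 32 or 33 bases apart, except for the 128 bases between the outer pair of Cdk1. Ccne1 held TTTAAA at -15, Ccnd3 held 1 CCAAT box at -108 of 1 of its 2 starts, and the windows of Cdk4 and Cdk6 held none of these letters. The Cdk6 window was placed on a start at chr5:3343893, inside the gene span, which begins at 3341004. No Cdk6 window at the beginning of the span was searched.

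Both strands were searched, matches of different motifs could overlap, and the E2F motif was spelled TTTCCCGC, TTTGGCGC, TTTCGCGC or TTTGCCGC. Over all 32851 RefSeq windows of the same 300 bases, 37.4% held at least 1 CCAAT, 11.7% at least 2 and 3.37% at least 3. TTTGAA was in 17.9% of them, TTTAAA in 13.2% and an E2F motif in 2.26%, and 3.13% held 2 CCAAT boxes with either TTTGAA or TTTAAA. Such matches are letters in a window and not shown to be used in these cells.

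**Figure D2:**
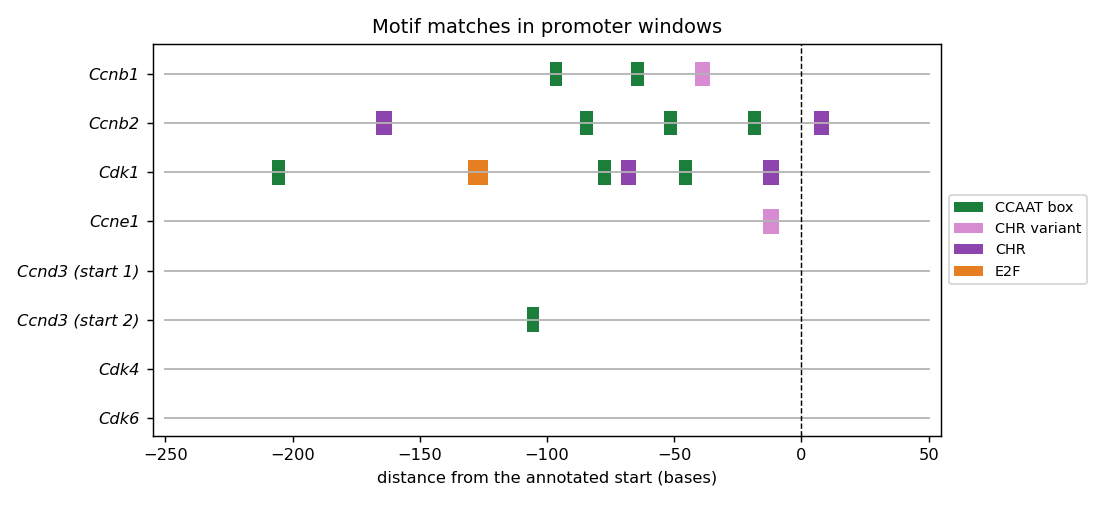
Positions of motif matches in the 8 promoter windows of 7 members, as distance in bases from the annotated start (dashed line). Each grey line is 1 window of 300 bases, and the coloured blocks are CCAAT (green), TTTGAA (dark purple), TTTAAA (light purple) and E2F (orange). Ccnb1, Ccnb2 and Cdk1 each hold at least 2 CCAAT boxes and a TTTGAA or TTTAAA.

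Among the G1 cyclins, Ccnd2 (chr6:127125162-127152188, RefSeq gene span on GRCm38) encodes a D-type cyclin that interleukin-2 and antigen signals induce in T cells. Ccnd2 was at 574.5, 414.9, 559.6 and 599.4 CPM in WT1 to WT4 and at 372.2, 520.4, 227.7 and 466.6 CPM in KO1 to KO4. The groups overlapped, since KO2 and KO4 lay above WT2, and KO3 was the lowest library. The log2 change of Ccnd2 was -0.49 with a 95% confidence interval (CI) of -1.002 to 0.02 (limma adjusted p = 0.169), from 537 ± 83.1 CPM in WT to 397 ± 128 CPM in IL-2-KO (SD, n = 4). This value rested in part on KO3: without it the log2 change of Ccnd2 was -0.24 (CI -0.58 to 0.09), and without WT2 and KO3 it was -0.36 (CI -0.64 to -0.09, limma adjusted p = 0.0704). It was -0.15 in libraries of over 2 M cells, -0.83 in those of under 2 M and -0.28 with array weights, and passed in none of these.

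Ccnd3 (chr17:47505051-47599689), the other D-type cyclin among the members, was at 212.0, 309.1, 326.1 and 257.6 CPM in WT and at 206.2, 176.5, 220.9 and 194.1 CPM in IL-2-KO. WT1 was low for its group and fell within the IL-2-KO range, and the other 3 WT libraries lay above all 4 IL-2-KO libraries. Ccnd3 fell by 0.45 on the log2 scale (CI -0.75 to -0.16, limma adjusted p = 0.0377), from 276 ± 51.8 to 199 ± 18.8 CPM (SD, n = 4). The call was lost in 11 of 22 alternatives, with an adjusted p of 0.0631 with the replicate number as a block and of 0.0691 without WT2 and KO3. It was also lost without WT2, WT3 or WT4 and without KO1, KO2 or KO4 (adjusted p 0.0603 to 0.114), while its direction was lower in all 22.

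Cdk4 (chr10:127063535-127067288) encodes a kinase that D-type cyclins activate. Cdk4 was at 192.6, 166.9, 179.5 and 186.9 CPM in WT and at 239.6, 216.2, 230.5 and 209.9 CPM in IL-2-KO. Every IL-2-KO library lay above every WT library, by a narrow margin and with little spread in either group. Cdk4 rose 1.23-fold (CI 1.10 to 1.38, limma adjusted p = 0.0163), from 181 ± 11.1 to 224 ± 13.5 CPM (SD, n = 4). The call was lost without WT3 (adjusted p = 0.055) and without WT2 and KO3 (0.058), with a log2 change of 0.30 and 0.25 there against 0.30 over all libraries.

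Cdk6 (chr5:3341004-3531008) encodes the other G1 kinase of the D-type cyclins. Cdk6 was at 41.1, 29.9, 46.8 and 42.8 CPM in WT and at 30.2, 44.8, 31.0 and 49.2 CPM in IL-2-KO. The groups covered the same range, and WT2 and KO1 and KO3 formed the low end. The log2 change of Cdk6 was -0.06 (CI -0.48 to 0.35, limma adjusted p = 0.846) and its interval ran from 0.718 to 1.28 times the WT level.

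Ccnd2 and Cdk6 have the longest transcripts of the 10 members (6.71 and 11.5 kb of exon), and both were low in WT2 and in KO1 and KO3 relative to the rest of their group. These libraries also had the lowest levels of long transcripts as a class. For the longest 10% of genes (7.18 kb or more), the median log2 deviation from the mean of the 8 libraries was -0.04 in WT2, -0.21 in KO1 and -0.14 in KO3, against 0.02 to 0.13 in the other 5 libraries. The part of this in the spread of Ccnd2 and Cdk6 was tested only by removing trends with transcript length and GC content from each library. The log2 change was then -0.46 for Ccnd2 (CI -0.88 to -0.03, limma adjusted p = 0.111) and -0.03 for Cdk6 (CI -0.31 to 0.25, adjusted p = 0.889).

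The E-type cyclins start DNA synthesis with Cdk2. Ccne1 (chr7:38097984-38107490) was at 54.5, 34.4, 41.7 and 47.9 CPM in WT and at 56.1, 53.8, 54.0 and 43.8 CPM in IL-2-KO. The groups overlapped, with WT1 above 3 of the 4 IL-2-KO libraries. The log2 change of Ccne1 was 0.23 (CI -0.08 to 0.54, limma adjusted p = 0.286). It was 0.11 without WT2, 0.33 without WT1 and 0.091 without WT2 and KO3, and passed in none of these.

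Ccne2 (chr4:11190433-11204779) was at 4.07, 5.82, 5.12 and 4.58 CPM in WT and at 5.90, 8.02, 5.54 and 6.71 CPM in IL-2-KO. Only KO3 fell within the WT range, just under WT2. The log2 change of Ccne2 was 0.38 (CI 0.01 to 0.75), with an unadjusted p of 0.0431 and an adjusted p of 0.136 by limma, and it passed in 1 of 22 alternatives, that with array weights (0.61, adjusted p = 0.00357), while quantile normalization gave 0.17.

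Ccna2 (chr3:36564865-36573038) encodes cyclin A2, which works with Cdk2 in S phase and with Cdk1 in G2. Ccna2 was at 14.97, 14.6, 16.8 and 13.02 CPM in WT and at 39.8, 62.6, 72.8 and 66.0 CPM in IL-2-KO. Every IL-2-KO library lay above every WT library, and the lowest of them, KO1, was over 2 times the highest WT library. Ccna2 rose 3.88-fold (CI 2.97 to 5.07, limma adjusted p = 9.54e-05), from 14.8 ± 1.56 to 60.3 ± 14.3 CPM (SD, n = 4). Ccna2 lies 548 kb from Il2 on the same chromosome, and the 3 listed genes between them (among them Bbs7 and Adad1) did not pass the test. Bbs7 and Adad1 were low, at 1.94 and 4.71 CPM in WT. The unnamed gene was at 560 CPM in WT and 439 CPM in IL-2-KO. Its log2 change was -0.39 (CI -0.77 to -0.01, limma adjusted p = 0.139). An effect of the Il2 locus on Ccna2 was not tested.

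Cdk1 (chr10:69335146-69352912) encodes the kinase of mitosis. Cdk1 was at 14.0, 15.9, 15.8 and 10.7 CPM in WT and at 35.2, 40.0, 71.7 and 48.5 CPM in IL-2-KO. All 4 IL-2-KO libraries lay above all 4 WT libraries, and KO3 was the highest. Cdk1 rose 3.29-fold (CI 2.38 to 4.56, limma adjusted p = 4.50e-04), from 14.1 ± 2.42 to 48.9 ± 16.2 CPM (SD, n = 4).

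Ccnb1 (chr13:100778739-100786486) encodes cyclin B1, the main mitotic partner of Cdk1. Ccnb1 was at 3.73, 3.58, 5.05 and 3.396 CPM in WT and at 10.4, 13.9, 29.8 and 16.9 CPM in IL-2-KO. At least 42.4 recovered counts lay behind each of these values. The groups did not overlap, and KO3 was well above the other 3. Ccnb1 rose 3.86-fold (CI 2.52 to 5.92, limma adjusted p = 0.001001), from 3.94 ± 0.755 to 17.7 ± 8.45 CPM (SD, n = 4).

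Ccnb2 (chr9:70407689-70421554) encodes cyclin B2, the second B-type cyclin. Ccnb2 was at 9.18, 10.4, 11.01 and 10.4 CPM in WT and at 38.8, 43.1, 65.6 and 40.2 CPM in IL-2-KO. WT libraries were close to each other, and KO3 again was the highest. Ccnb2 rose 4.33-fold (CI 3.37 to 5.54, limma adjusted p = 6.21e-05), from 10.2 ± 0.762 to 46.9 ± 12.6 CPM (SD, n = 4), the largest fold among the 10 members.

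**Figure D3:**
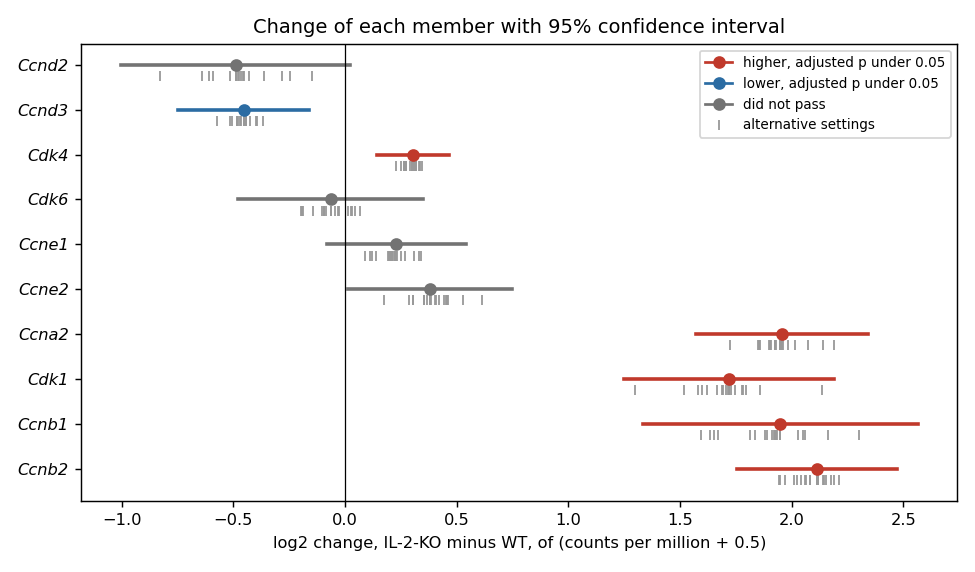
Log2 change of each member, IL-2-KO minus WT, of CPM + 0.5, with its 95% confidence interval from limma (4 libraries per group). Grey ticks under each bar are the same change under 22 alternative settings. Ccna2, Cdk1, Ccnb1 and Ccnb2 lie between 1.72 and 2.11, and the intervals of Ccnd2, Cdk6 and Ccne1 include 0.

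KO3 had the highest Ccna2, Cdk1, Ccnb1 and Ccnb2 of all libraries and the lowest Ccnd2, and it was also the library with the most Lyz2 and Cd4. Without it and WT2, the log2 changes were 1.85 for Ccna2, 1.58 for Cdk1, 1.63 for Ccnb1 and 1.95 for Ccnb2, and all 4 passed (limma adjusted p at most 0.00140). With both left out, 4 members were called higher and 0 lower, against 10.7% and 7.34% of all genes tested. The same 4 members kept their call in all 22 alternatives.

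Sorted cell number differed widely within both groups, so the change was also taken within libraries of over and of under 2 M cells, with 2 libraries per group in each. In the libraries of over 2 M cells the log2 changes were 1.72 for Ccna2, 1.30 for Cdk1, 1.59 for Ccnb1 and 2.01 for Ccnb2. In those of under 2 M cells they were 2.19, 2.14, 2.30 and 2.21 in the same order. These 4 passed in each class and no other member did (limma adjusted p of Cdk4 0.337 and 0.253), where 2.79% of all genes were called higher and 0.538% lower in the first class and 3.08% and 0.746% in the second. No member passed the test of a different change between the classes (interaction term), which called 0% of all genes (limma, 193 of 11530 genes at an unadjusted p under 0.05). With 2 libraries per group in each class, this does not show that the changes were alike. The class of under 2 M cells includes KO3, and the part of that library in the differences between the classes was not tested. The difference for Cdk1, 0.84 larger in the small libraries (CI 0.06 to 1.62), had an unadjusted p of 0.0388 and an adjusted p of 0.9999 by limma.

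Set side by side, levels of the member sets were taken as the geometric mean of CPM + 0.5 in each library. That of the 4 G1 members (Ccnd2, Ccnd3, Cdk4 and Cdk6) was 160 to 199 in WT and 138 to 175.6 in IL-2-KO. That of the 4 S phase and mitotic members (Ccna2, Cdk1, Ccnb1 and Ccnb2) was 8.96 to 11.6 in WT and 28.0 to 57.1 in IL-2-KO. The G1 ranges overlapped and the S phase and mitotic ranges were far apart. The median log2 change was -0.26 over the G1 members, 0.31 over the 2 E-type cyclins and 1.95 over the S phase and mitotic members, beside -0.0097 over all genes tested. These medians describe the members and carry no test.

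Whether 2 members changed unequally was tested by the difference of their log2(CPM + 0.5) within each library, in which the library's scaling largely cancels. The ratios given below are of the plain CPM. For 9 pairs an exact two-sided permutation test over 70 assignments was used, whose smallest possible p is 0.0286, with Benjamini-Hochberg adjustment over the 9. The ratio of Cdk1 to Cdk6 was 0.341, 0.532, 0.337 and 0.251 in WT and 1.17, 0.894, 2.32 and 0.986 in IL-2-KO. The ratio, which is not per length and so is read only between libraries, did not overlap between the groups, and KO3 had the highest.

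The ratio of Cdk1 to Cdk4 was 0.0574 to 0.0955 in WT and 0.147 to 0.311 in IL-2-KO. The ratio of Ccna2 to Ccne2 was 2.51 to 3.68 in WT and 6.75 to 13.1 in IL-2-KO. The IL-2-KO minus WT difference was 1.78 on the log2 scale for Cdk1 over Cdk6, 1.42 for Cdk1 over Cdk4 and 1.58 for Ccna2 over Ccne2, higher in 4 of 4 IL-2-KO libraries each time. Each of the 3 reached the smallest exact permutation p of 0.0286 and had an adjusted p of 0.0857, so none passed the correction. With only 3 pairs at the smallest possible p, this adjustment cannot pass any pair, however far apart the groups are. The correction therefore does not decide whether these 3 ratios differed between the groups.

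Members that act together or are paralogs had overlapping differences in the other 6 pairs. The log2 difference between the groups was 0.24 for Ccna2 over Cdk1 (exact permutation p = 0.200) and 0.23 for Ccnb1 over Cdk1 (exact permutation p = 0.143). It was -0.16 for Ccnb1 over Ccnb2 (exact permutation p = 0.400), and -0.15 for Ccne1 over Ccne2 (exact permutation p = 0.629). For the G1 members it was -0.04 for Ccnd2 over Ccnd3 (exact permutation p = 0.971) and 0.37 for Cdk4 over Cdk6 (exact permutation p = 0.229). With 4 libraries per group a p of this size does not show that the 2 members of a pair changed alike.

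**Figure D4:**
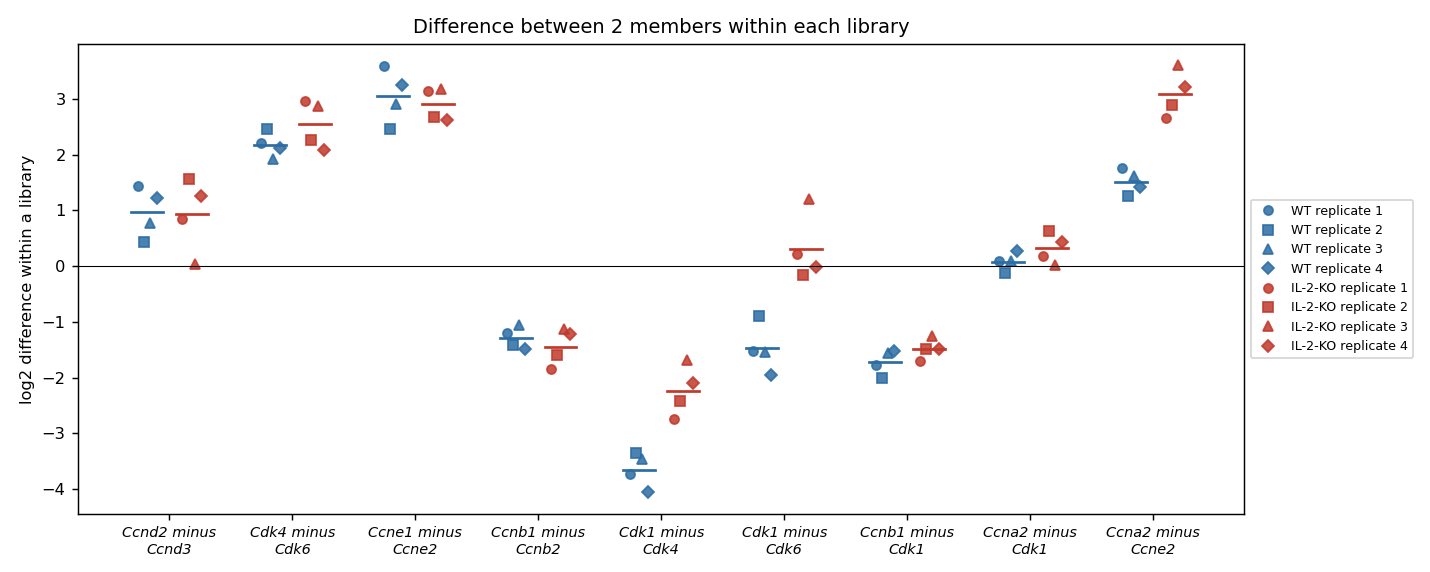
Log2 difference between 2 members within each library for the 9 pairs, WT in blue and IL-2-KO in red, marker shape by library number and bars at the mean of 4 libraries. The groups are apart for Cdk1 minus Cdk4, Cdk1 minus Cdk6 and Ccna2 minus Ccne2 and overlap for the other 6 pairs.

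Levels can be compared between genes only per length, here CPM per kb of exon in GENCODE models of GRCm38. In WT the order of mean level was Ccnd3 (113), Cdk4 (88.4), Ccnd2 (80.0), Ccne1 (22.3), Ccnb2 (6.68), Ccna2 (4.09), Cdk6 (3.48), Cdk1 (3.16), Ccnb1 (1.58) and Ccne2 (1.53 CPM per kb). Of these 9 neighbours the ranges were apart for Ccnd2 and Ccne1, for Ccne1 and Ccnb2, for Ccnb2 and Ccna2 and for Cdk1 and Ccnb1, and overlapped for the other 5. The G1 and E-type members therefore stood above the rest, except Cdk6 and Ccne2.

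In IL-2-KO the order was Cdk4 (109), Ccnd3 (81.5), Ccnd2 (59.1), Ccnb2 (30.6), Ccne1 (26.0), Ccna2 (16.6), Cdk1 (10.9), Ccnb1 (7.13), Cdk6 (3.36) and Ccne2 (2.04 CPM per kb). The ranges of neighbours were apart for Cdk4 and Ccnd3, for Ccne1 and Ccna2 and for Cdk6 and Ccne2. Ccnb2 stood next to Ccne1 there, and Cdk6, which had a higher mean per kb than Cdk1 and Ccnb1 in WT, had a lower one than both.

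The rest of the pathway was read from 7 gene lists that hold no member, with Ccnf in 2 of them. The counts of calls in each list stand beside 11.1% higher and 8.03% lower over all genes tested. Of 37 other cyclins and CDK-related genes tested, 5 were called higher (Ccnf, Ccng1, Cdk2, Cdk2ap1 and Cdk5r1) and 3 lower (Ccnl2, Cdk13 and Cdk16). The other 29 did not pass, and the median log2 change was -0.10. Both counts of calls in this list were near the shares over all genes tested. Ccnf, which encodes cyclin F, a subunit of a ubiquitin ligase of G2, rose 2.87-fold from 10.1 ± 0.812 to 30.1 ± 5.55 CPM (SD, n = 4, limma adjusted p = 1.02e-04). Cdk2, the kinase of cyclins E and A, rose 1.23-fold from 61.4 ± 2.68 to 76.1 ± 8.64 CPM (limma adjusted p = 0.0409), a call lost in 12 of 22 alternatives. Ccnd1, the D-type cyclin that lymphocytes use little, was at 2.77 to 6.57 CPM in WT and 2.46 to 11.6 CPM in IL-2-KO (limma adjusted p = 0.823), highest in WT2 and KO3, the libraries with Lyz2 and Cd4.

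CDK inhibitors moved both ways. Cdkn1b encodes p27, which holds cyclin E and A complexes inactive in resting T cells. Cdkn1b was at 206.8, 218.5, 247.5 and 248.2 CPM in WT and at 152.5, 169.4, 145.9 and 179.8 CPM in IL-2-KO, with no overlap, and fell by 0.51 on the log2 scale (limma adjusted p = 0.00385). Cdkn2c, which encodes p18, an inhibitor of Cdk4 and Cdk6, rose 2.18-fold from 6.53 ± 0.433 to 15.03 ± 3.14 CPM (limma adjusted p = 6.98e-04), and Cdkn3, a phosphatase that acts on CDKs, rose 2.95-fold (adjusted p = 0.00386). Cdkn2d, which encodes p19, was at 101 ± 5.52 and 103 ± 19.7 CPM (limma adjusted p = 0.955). Cdkn1a, Cdkn1c, Cdkn2a and Cdkn2b were not analysed here.

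Among 9 activators, brakes and cofactors of CDKs, 6 were called higher, 0 lower and 3 did not pass, with a median log2 change of 0.72. Both the phosphatase Cdc25b, which activates CDKs, and the kinases Wee1 and Pkmyt1, which restrain Cdk1, rose, by 1.54-fold, 1.70-fold and 1.75-fold (limma adjusted p = 6.22e-04, 8.83e-04 and 4.94e-04). Cks1b, a small protein that binds CDKs, rose 2.48-fold (limma adjusted p = 0.00238).

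Of 18 genes that control the turnover of cyclins and inhibitors, 7 were called higher, 0 lower and 11 did not pass, with a median log2 change of 0.26. Cdc20, the activator of the ubiquitin ligase that destroys mitotic cyclins, rose 2.55-fold, and Bub1b and Mad2l1, spindle checkpoint proteins that restrain Cdc20, rose 3.62-fold and 2.39-fold (limma adjusted p = 3.55e-04, 2.02e-04 and 3.21e-04). Activators and restraints of the same step were thus both higher.

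Of 19 pocket protein and E2F genes, 9 were called higher, 1 lower and 9 did not pass, with a median log2 change of 0.26. The activator E2f1 rose 1.88-fold and E2f2 2.07-fold, and the repressors E2f7 and E2f8 rose 3.36-fold and 3.505-fold (limma adjusted p = 6.22e-04, 1.55e-04, 2.89e-04 and 9.54e-05). Foxm1, a transcription factor of G2 and mitotic genes, rose 2.55-fold (limma adjusted p = 1.48e-04). Rb1, the substrate of the G1 kinases, was at 66.7 ± 8.65 CPM in WT and 66.9 ± 10.03 CPM in IL-2-KO (SD, n = 4, limma adjusted p = 0.998).

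Of 20 S phase targets 19 were called higher and 1, Cdt1, did not pass, with a median log2 change of 0.97. Rrm2, a subunit of ribonucleotide reductase, rose 3.35-fold, Mcm10 3.05-fold, Tyms (thymidylate synthase) 2.72-fold and the helicase subunit Mcm3 1.77-fold. All 16 mitotic genes were called higher, with a median log2 change of 1.66, close to the 1.72 to 2.11 of Ccna2, Cdk1, Ccnb1 and Ccnb2. The proliferation antigen Mki67 rose 3.80-fold from 120 ± 17.4 to 461 ± 76.7 CPM (SD, n = 4), and the spindle and centromere genes Tpx2, Cenpf and Nusap1 rose 3.66-fold, 3.73-fold and 3.19-fold (limma adjusted p at most 1.02e-04 for all 8 genes of this paragraph with a fold). Without WT2 and KO3, 17 of the 20 S phase targets and 16 of the 16 mitotic genes were called higher, against 10.7% of all genes tested.

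**Figure D5:**
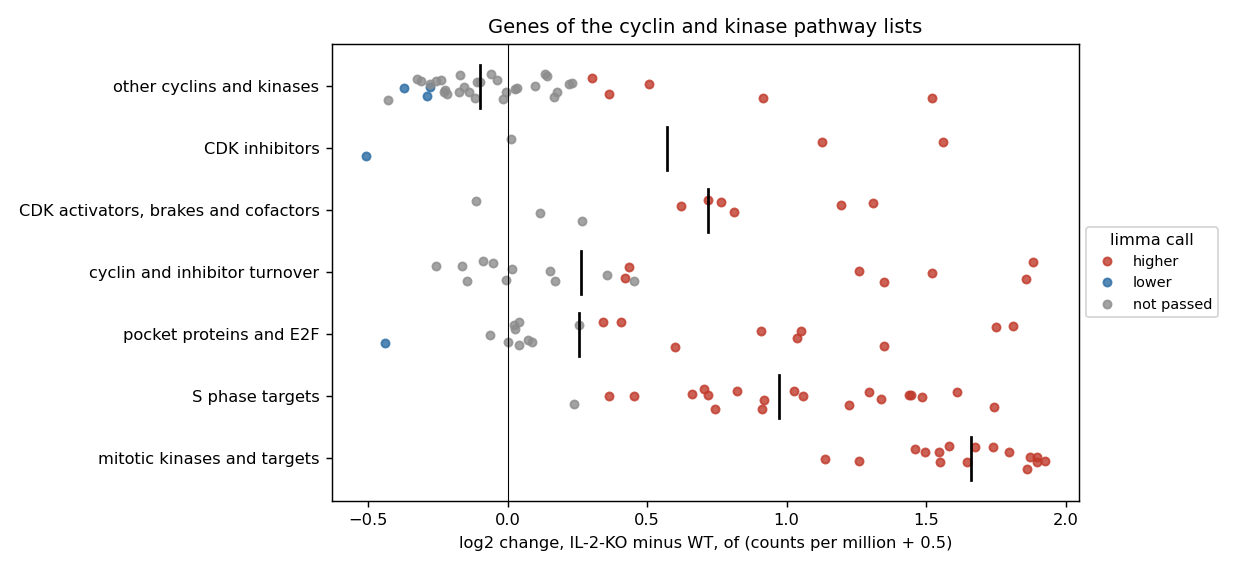
Log2 change, IL-2-KO minus WT, of each tested gene of the 7 pathway lists (1 point per gene, scattered vertically only for visibility). Red and blue are genes called higher and lower by limma, grey did not pass and black bars are the list medians. The medians run from -0.10 for other cyclins and kinases to 1.66 for mitotic genes.

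The genes whose log2 levels followed each member most closely over the 8 libraries were taken by Pearson's r among 9736 other genes with a mean of at least 5 CPM. For Ccna2 they were Kif11 (r = 0.995), Bub1b (0.995) and Ncapd2 (0.995), for Cdk1 they were Cdkn2c (0.992), Sgo2a (0.991) and Incenp (0.990), and for Ccnb1 they were Cenpn (0.994), Incenp (0.992) and Cdkn2c (0.991). For Ccnb2 they were Mxd3, Eea1 and Nfkb2 (each r = 0.996). Part of these r comes from the difference between the groups, and after centring on the group means the values for these genes were 0.910 to 0.964.

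For the other members listed here, Ccnd2 was closest to Stx16 (r = 0.990, and 0.998 after centring), Ccnd3 to Scml4 (0.985 and 0.966) and Cdk4 to Zfp467 (0.992 and 0.973). Ccne1 was closest to Flad1 (0.958 and 0.954) and Ccne2 to Tlk1 (0.977 and 0.952). These r describe 8 libraries that share depth, length and cell content effects across all genes, and they carry no test.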

How the data were processed

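Expression was measured in 8 bulk libraries of sorted CD8 T cells, 4 WT and 4 IL-2-KO. The authors deposited 1 signal value per gene and library, which the table's own title calls CPM on TMM-scaled totals. Tools named in the submitters' processing notes are featureCounts, R 3.4.3 and limma 3.34.9, with GRCm38 (mm10) and no roles. The aligner and the strand setting are not given in the sources used here. CPM was foreseen when the tests were set. The deposited columns do not sum to 1e6 each, so the unit was named a signal, and the test was kept. Steps between low values gave the counts behind each library (11.9 to 18.4 M, where M is 1e6), and 54.6% to 65.0% of low values were whole reads (within 0.001 read), so no test of whole counts was run. No pair of libraries was a duplicate (chi-square per gene 4.97 or more between libraries of 1 group).

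A gene was tested if 4 or more libraries had a value of 1 or more (11530 of 11723). Values were taken as log2(value + 0.5), and the groups compared with limma 3.58.1 under R 4.3.3 (group as the factor, moderated variances with an intensity trend, two-sided, Benjamini-Hochberg over all genes tested, threshold 0.05). The steps were tested on simulated data. Within-library differences used exact permutation tests. Entrez identifiers were matched to RefSeq symbols (11651 matched, 72 not). Named genes were the members, up to 4 tested genes per pathway list with the smallest adjusted p and a fixed panel (Cdk2, Cdkn1b, Cdkn2c, Ccnd1, Rb1, E2f1, Mki67 and Cdkn1a, the last not analysed here), and the 3 genes most like each member, of which some are not reported here. Cdk13, Cdk16, Cdk5r1, Cdt1, Bbs7 and Adad1 were named after their values were seen. The members and lists were chosen with earlier results of these data known. Alternatives covered pseudocounts of 0.1 and 2, filters, scaling, weights, a replicate block, cell number and leaving out libraries. The removal of length and GC trends, and pairs without WT2 and KO3 (replicate 2 of WT and replicate 3 of IL-2-KO), were added after seeing the data. Separate cultures or animals behind the 4 libraries are given only by the design text, and p-values measure the spread between these libraries.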

Additional observations from a re-analysis of the deposited data

Results flagged for a closer look

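Checked were 100 groups of 4 libraries (the members, the pairs and the 31 related genes named, each in WT and in IL-2-KO). Of these, 10 held 1 library far from the other 3. The chance rate of about 1 in 20 holds for a single group. These groups share the same 8 libraries and related genes, so their count is not compared with that rate. Among the members this was Ccnb2 in KO3 (65.6 CPM, the next at 43.1). The same library was far above the others for Cks1b (42.2 CPM, the next at 27.9), Mad2l1 (61.7 CPM, the next at 43.5) and Ccnd1 (11.6 CPM, the next at 3.55).

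WT2 was far above the other WT libraries for Cdkn3 (3.46 CPM, the next at 1.68), Cks1b (18.0 CPM, the next at 10.4) and Ccnd1 (6.57 CPM, the next at 3.28), and far below them for Mki67 (94.4 CPM, the next at 126.6). WT1 was far above the others for E2f8 (9.9996 CPM, the next at 8.12), and KO1 was far below the others for E2f7 (7.64 CPM, the next at 11.9). WT2 and KO3, which also carried Lyz2 and Cd4, account for 8 of the 10.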

How the results depend on the processing

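The count of members called higher, 5, was 4 to 6 over 22 alternatives. The count called lower, 1 (Ccnd3), was 0 with no mean-variance trend, with the replicate block, in libraries of over 2 M cells, in those of under 2 M and without both WT2 and KO3, and 0 to 1 with each library left out in turn. Ccna2, Cdk1, Ccnb1 and Ccnb2 kept their call throughout. For the losses the cause was not tested. Each group has 4 libraries, and the fewest counts behind a value of Ccnb1 were 42.4.

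With the replicate block, 5 members were called higher and 0 lower, calls among other cyclins and kinases went from 5 higher and 3 lower to 1 and 0, and calls over all genes from 1285 higher and 926 lower to 911 and 486. Same-numbered libraries deviated together in replicate 4 but not in every pair (correlations 0.08, -0.53, -0.40 and 0.39 for replicates 1 to 4). The highest correlation was between differently numbered libraries, WT2 and KO3 (0.66). The numbers were not taken to pair the libraries. Over all genes, array weights gave 2240 higher and 2119 lower, libraries of over 2 M cells 322 and 62, and those of under 2 M 355 and 86. The share called higher rather than lower moved with quantile normalization (1169 higher, 1223 lower). Fewer of the other cyclins and kinases passed in single classes of cell number, 1 higher and 0 lower in each.

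Values that changed sign were all of log2 changes that did not pass. That of Cdk6 was 0.028 with array weights, 0.067 over 2 M cells and -0.20 to 0.044 with single libraries left out. That of Cdkn2d was -0.015 with a median shift, -0.074 with array weights, -0.043 under 2 M cells, -0.040 without WT2 and KO3, -0.022 with length and GC trends removed and -0.084 to 0.13 with single libraries left out. That of Ccnd1 was -0.028 with quantile normalization, -0.44 over 2 M cells, -0.038 without WT2 and KO3 and -0.29 to 0.42 with single libraries left out. That of Rb1 was -0.028 with a median shift, -0.015 with cell number as covariate, -0.042 under 2 M cells, -0.032 without WT2 and KO3 and -0.071 to 0.084 with single libraries left out. Of the pairs, Ccnd2 over Ccnd3 was 0.27 over 2 M cells, 0.080 without WT2 and KO3 and -0.24 to 0.26 with single libraries left out, Ccnb1 over Ccnb2 was 0.090 under 2 M cells, and Ccne1 over Ccne2 was -0.35 to 0.027 with single libraries left out.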
